A study of Mus musculus with 7 samples.

Results

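Potassium channel genes were followed in polyA RNA-seq libraries of cortical neurons from E16.5 mouse embryos. The genes are the rows whose mouse symbol begins with Kcn and that had at least 10 counts in at least 3 of the 7 libraries, which were 59 of the 26286 genes in the count table. The groups were 4 KAT7 mutant and 3 wild type mice, all labelled male and C57BL/6, with brain as the tissue and cortical neurons as the cell type. KAT7, a MYST-type enzyme, acetylates histone H3. The sources used here give neither the mutant allele, nor a Cre driver, nor the way the neurons were obtained, so the cells in which Kat7 was mutated cannot be stated.

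Potassium channels let potassium leave the cell and so set the resting potential, the threshold and the repolarisation of a neuron. Pore-forming subunits fall into voltage-gated (Kv), calcium- or sodium-activated, inwardly rectifying and K2P leak families, and auxiliary subunits set where and how fast they open. Immature cortical neurons express part of this repertoire and add members as they mature and begin to fire repetitively.

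Of 97 Kcn rows in the table, 38 were under the count rule. Just inside the rule, Kcnh8 had 9, 7, 7 and 10 counts in KAT7 mutant, against 9, 10 and 20 counts in wild type, and Kcns3 had 0, 4, 4 and 4 counts in KAT7 mutant, against 16, 12 and 10 counts in wild type. Just outside it, Kcnj5 had 4, 8, 11 and 4 counts in KAT7 mutant, against 8, 5 and 7 counts in wild type, and Kcns1 had 3, 13, 11 and 6 counts in KAT7 mutant, against 8, 4 and 4 counts in wild type. Kcnh8, an ELK-type channel gene, and Kcns3, a modulatory subunit gene, did not pass the filter on low counts and were not tested, which left 57. A gene can meet the count rule through 1 genotype. A mean count under 10 in KAT7 mutant only was found in 6 members (Kcna4, Kcnh1, Kcnh5, Kcnh8, Kcns3 and Kcnt1), and in wild type only in Kcng3. Of these, Kcnh1 and Kcnh8 met the rule only with a mutant library that had at least 10 counts, and the others met it through 1 genotype.

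Libraries held 8272487 to 8813060 counts, and 13681 genes were tested. Kat7 had 0.598 ± 0.420 CPM in KAT7 mutant and 98.9 ± 3.68 CPM in wild type (SD, n = 4 and 3), which matches the labels. Neuronal and excitatory cortical markers were abundant in every library, with sums of 6079 to 6306 CPM in KAT7 mutant and 6136 to 6361 CPM in wild type for 7 neuronal genes. KAT7 mutant replicate 1 stood apart on the second principal component (23.1, against -9.75 to -5.05 in the other mutant libraries and -1.53 to 1.65 in wild type). It also had the highest sum of 9 immediate early genes, 418.9 CPM against 213 to 244 CPM in the other mutant libraries and 189 to 228 CPM in wild type. Of the marker lists of other cells, genes of 3 lists were called higher and none lower: 5 of 8 tested for interneurons, 4 of 7 for the oligodendrocyte lineage (35.6 to 54.2 CPM in KAT7 mutant and 29.6 to 35.4 CPM in wild type, summed) and 4 of 6 for microglia (26.9 to 36.03 CPM in KAT7 mutant and 17.4 to 20.0 CPM in wild type). Genes of another 3 lists were called lower and none higher: 5 of 7 for radial glia, 2 of 4 for astrocytes and 2 of 4 for pericytes (24.7 to 27.7 CPM in KAT7 mutant and 28.3 to 33.5 CPM in wild type). Of all tested genes, 13.1% were called higher and 15.8% lower. No gene of these lists was at 0 in every library, and their part in the results was not tested. In bulk RNA, fewer cells of a type and less RNA per cell cannot be told apart.

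More potassium channel genes fell than rose in KAT7 mutant neurons. The edgeR quasi-likelihood test called 23 of the 57 tested genes lower and 7 higher, at a Benjamini-Hochberg adjusted p under 0.05 over all tested genes. Called genes made up 52.6% of the tested Kcn genes, beside 28.9% of all tested genes, with 40.4% lower beside 15.8% and 12.3% higher beside 13.1%. The median log2 fold change of the 57 genes was -0.26, beside 0.00 for all tested genes. Of the falls, 12 were 2-fold or more (3.79% of all tested genes fell so far), and of the rises 2 were, Kcng3 and Kcnn3 (1.1% of all tested genes). Among these, Kcna4, Kcnh5 and Kcnt1 had a mean count under 10 in KAT7 mutant only, and Kcng3 in wild type only. The count rule admits such genes through 1 genotype, so the 2-fold counts are partly built in by it. Among the 52 tested members with a mean of at least 10 counts in both genotypes, 20 were lower, 6 higher and 26 not called. The share of all genes called under that same condition was not computed, so these counts have no matched background. Without KAT7 mutant replicate 1 the test called 22 lower and 9 higher, beside 16.3% and 13.1% of all genes tested, and DESeq2 on all libraries called 21 lower and 7 higher, beside 12.6% and 10.4%.

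**Figure D1:**
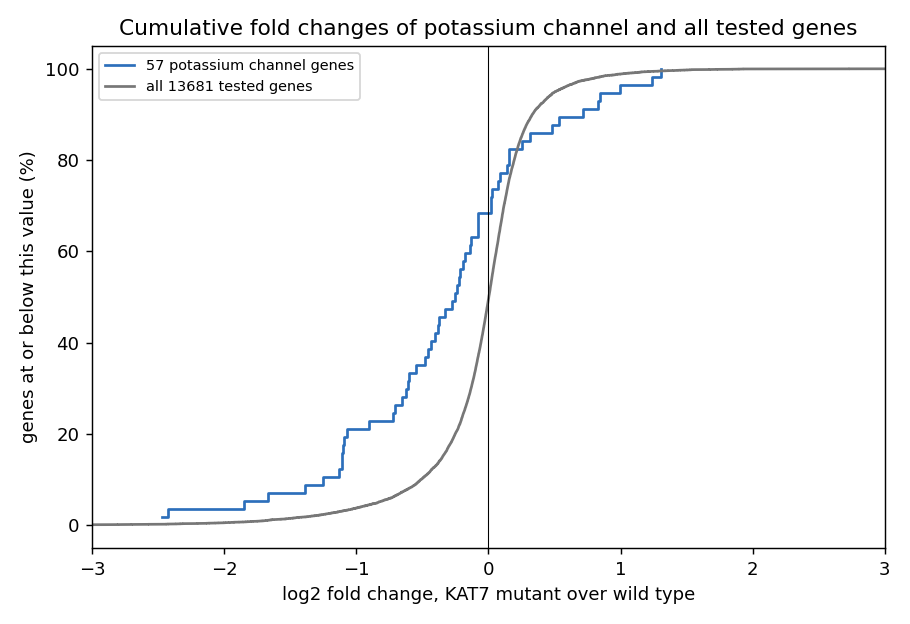
Cumulative share of genes (vertical axis, percent) at or below each log2 fold change of KAT7 mutant over wild type (horizontal axis), for the 57 tested Kcn genes (blue) and all 13681 tested genes (grey). The blue line lies above the grey one over the negative values, with 68.4% of Kcn genes and 49.5% of all genes below 0.

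Summed over the 59 members, the level was 1024 ± 74.5 CPM in KAT7 mutant and 1172 ± 60.1 CPM in wild type (SD, n = 4 and 3). Kcnq1ot1, a long non-coding RNA antisense to Kcnq1 that takes part in imprinting and encodes no channel, varied widely within both genotypes. Without it the sum was 922 ± 38.1 CPM in KAT7 mutant (880 to 957 CPM) and 1099 ± 26.9 CPM in wild type (1071 to 1125 CPM), 83.9% of the wild type level and with no overlap between genotypes. Of the 57 tested genes, 30 had no overlap between genotypes (52.6%, beside 35.3% of all tested genes), and 29 of these were called. The exceptions were Kcnv1, which was called with overlapping libraries, and Kcnip4, which did not overlap and was not called.

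**Figure D2:**
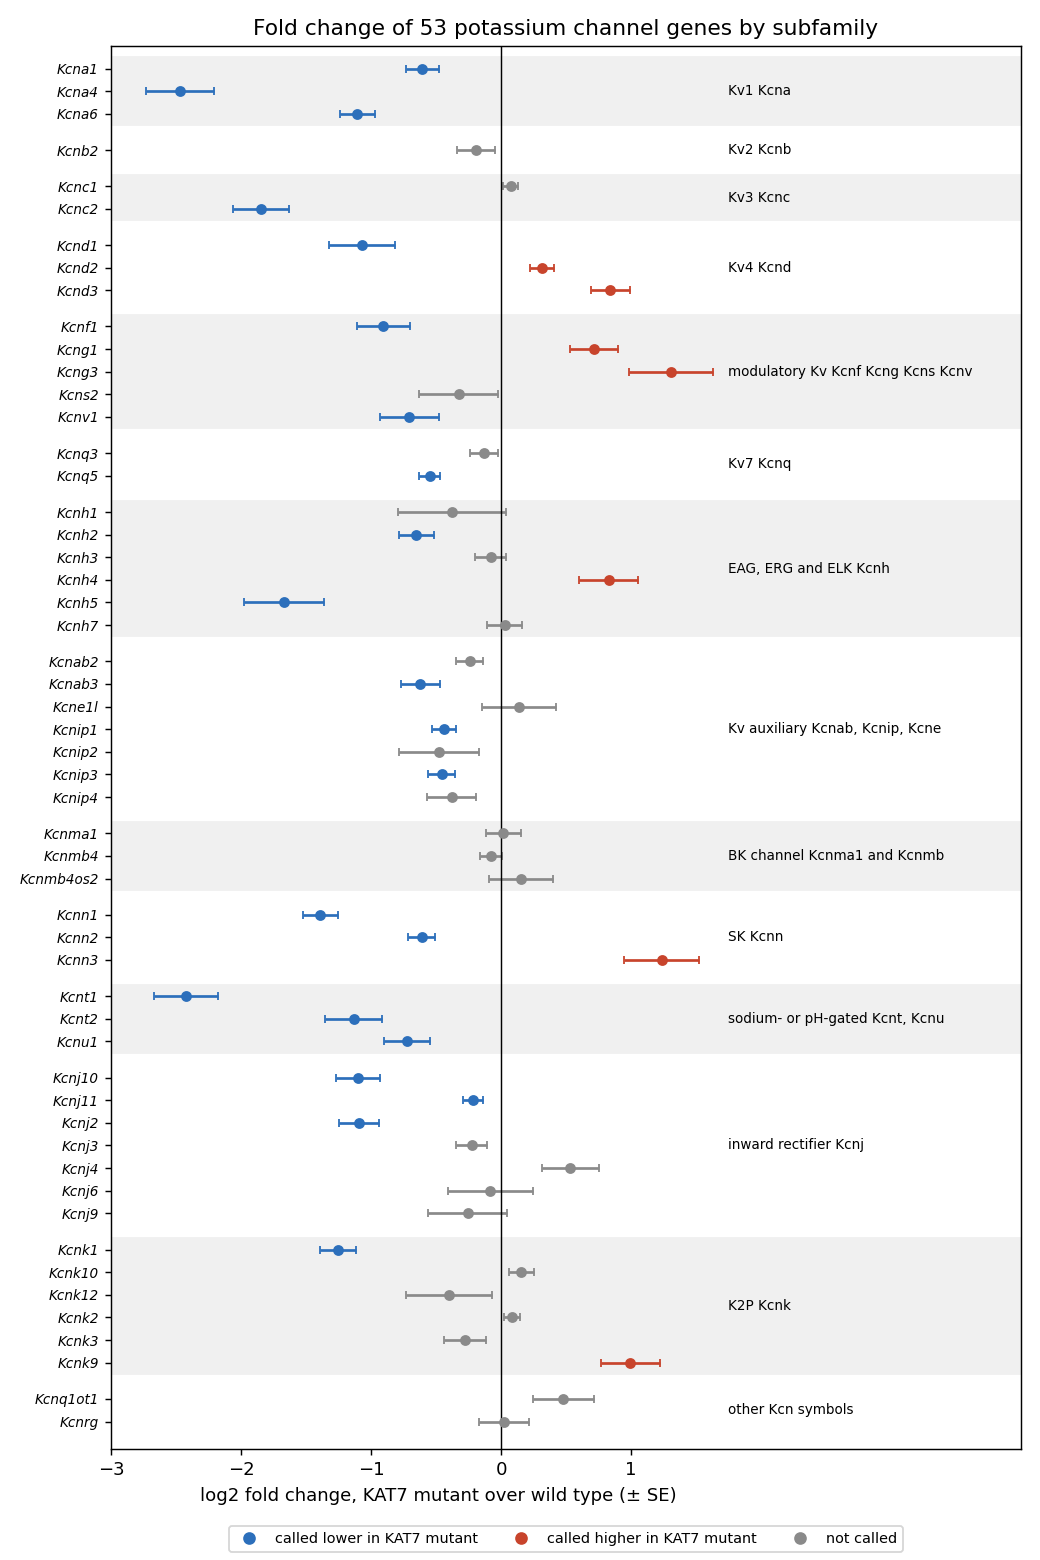
Log2 fold change of KAT7 mutant over wild type (horizontal axis, points) with its SE (bars) for 53 of the 57 tested Kcn genes, in bands by subfamily down the page. Blue points are called lower, red points called higher and grey points not called, and the Kv1 and the sodium- or pH-gated bands hold blue points alone.

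Voltage-gated Kv1 channels, which act on axons and limit repetitive firing, fell in all 3 members that met the count rule. Genes called lower made up 15.8% of all tested genes. Kcna4 met the rule through wild type, with a mean count of 8.25 in KAT7 mutant and 47.3 in wild type. Kcna4, which encodes a fast-inactivating subunit, had 1.29, 0.812, 0.827 and 0.978 CPM in KAT7 mutant, against 7.01, 4.81 and 4.64 CPM in wild type. Every mutant library was below every wild type library, and the log2 fold change was -2.47 ± 0.26 (SE), a 5.54-fold lower level with an edgeR adjusted p of 5.20e-07. Kcna6, a delayed rectifier subunit, had 11.6, 10.9, 8.15 and 7.46 CPM in KAT7 mutant, against 22.2, 18.8 and 20.7 CPM in wild type, a log2 fold change of -1.11 ± 0.14 (edgeR adjusted p = 3.28e-06). Kcna1, the axonal subunit and the most abundant of the 3 per length, had 53.3, 46.8, 31.0 and 42.2 CPM in KAT7 mutant, against 79.8, 56.2 and 62.0 CPM in wild type. Its libraries spread widely within each genotype and did not overlap between them, and it fell by 0.60 ± 0.13 on the log2 scale (edgeR adjusted p = 0.00128). Robust edgeR fitting did not call Kcna1 (adjusted p = 0.0891, with 3.51e-12 to 0.0891 across the settings tried). Kcna1 and Kcna6 are next to each other among protein-coding genes on chromosome 6. Scaled by length, Kcna4 made up 3.06 ± 0.502% of the summed Kv1 level in KAT7 mutant and 9.36 ± 0.923% in wild type (SD, n = 4 and 3).

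The window around the annotated start of Kcna4 is shown with those of 3 further genes. Kcnf1 also fell and had the fewest CpG dinucleotides among the genes that fell and had a window. Kcnd3 rose. Kcnmb4 was not called and had the most CpG among the uncalled genes with a window. Each window runs from 250 bases before to 50 bases after the start, 5′ to 3′ on the gene's strand, with each CpG in capitals, from RefSeq on GRCm38.p6, a later assembly than the mm9 named for the counts. Kcna4 lies at chr2:107290339-107290638 on the plus strand, Kcnf1 at chr12:17176839-17177138 on the minus strand, Kcnd3 at chr3:105451640-105451939 on the plus strand and Kcnmb4 at chr10:116473474-116473773 on the minus strand.
Kcna4: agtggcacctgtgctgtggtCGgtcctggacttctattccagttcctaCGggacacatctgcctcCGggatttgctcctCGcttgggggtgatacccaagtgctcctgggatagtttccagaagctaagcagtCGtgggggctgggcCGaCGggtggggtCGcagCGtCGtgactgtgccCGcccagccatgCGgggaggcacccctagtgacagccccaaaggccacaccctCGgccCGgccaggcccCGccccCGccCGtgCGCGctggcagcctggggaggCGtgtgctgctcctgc
Kcnf1: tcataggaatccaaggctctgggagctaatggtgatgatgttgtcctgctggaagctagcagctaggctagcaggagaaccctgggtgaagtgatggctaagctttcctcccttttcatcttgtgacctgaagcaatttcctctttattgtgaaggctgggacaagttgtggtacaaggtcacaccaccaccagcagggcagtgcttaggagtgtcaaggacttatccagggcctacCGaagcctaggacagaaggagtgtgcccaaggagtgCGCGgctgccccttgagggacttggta
Kcnd3: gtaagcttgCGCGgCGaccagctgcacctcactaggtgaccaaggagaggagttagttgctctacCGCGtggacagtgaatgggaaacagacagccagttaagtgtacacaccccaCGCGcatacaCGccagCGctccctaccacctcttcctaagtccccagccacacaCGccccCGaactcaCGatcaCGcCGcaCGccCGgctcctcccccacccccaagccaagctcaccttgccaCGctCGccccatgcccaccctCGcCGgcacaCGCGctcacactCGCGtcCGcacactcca
Kcnmb4: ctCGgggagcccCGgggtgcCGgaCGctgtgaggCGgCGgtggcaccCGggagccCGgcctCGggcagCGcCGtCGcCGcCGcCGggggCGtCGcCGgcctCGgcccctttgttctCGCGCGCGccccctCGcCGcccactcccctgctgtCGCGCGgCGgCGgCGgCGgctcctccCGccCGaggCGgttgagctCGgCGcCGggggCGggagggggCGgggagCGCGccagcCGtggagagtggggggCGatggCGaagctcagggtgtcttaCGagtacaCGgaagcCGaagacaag
The windows hold 20 CpG in Kcna4, 3 in Kcnf1, 25 in Kcnd3 and 48 in Kcnmb4. Such windows were at hand for 38 of the 57 tested genes, 10 of which have several annotated starts that were averaged. The 14 genes called lower had a median of 12.7 CpG per window and a range of 3 to 21. The 5 called higher had a median of 25 and a range of 11 to 49, and the 19 not called had a median of 18.8 and a range of 1 to 48. All tested genes with a window had a median of 21. These are descriptions of the windows given, with no test, and the rest of the members are without one. The letters of the GC box, GGGCGG, searched on both strands of every window of a gene, were in the windows of 9 of the 14 lower, 3 of the 5 higher and 15 of the 19 uncalled genes, beside 69.6% of all tested genes. The TATA box letters, TATAAA, were in 1 of the 38, a gene not called, beside 8.4% of all tested genes.

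Kcnb2, a Kv2 delayed rectifier of the cell body and proximal dendrites, was not called, at -0.19 ± 0.14 with a 95% interval of -0.49 to 0.11.

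The Kcnf, Kcng, Kcns and Kcnv subunits form no channel alone and modify Kv2 channels by joining them, and they moved in both directions. Kcng3 had 2.10, 2.67, 2.13 and 3.91 CPM in KAT7 mutant, against 1.43, 1.03 and 0.792 CPM in wild type. It rose by 1.31 ± 0.32 on the log2 scale from a low level (edgeR adjusted p = 0.00411), with KAT7 mutant replicate 4 the highest library. Kcng1 had 8.53, 10.4, 15.4 and 11.1 CPM in KAT7 mutant, against 5.70, 6.52 and 8.48 CPM in wild type, a rise of 0.71 ± 0.18 (edgeR adjusted p = 0.00598), and its lowest mutant library lay just above its highest wild type library. Kcnf1 fell by 0.91 ± 0.21 (edgeR adjusted p = 0.00215), with 4.09, 3.25, 3.66 and 3.18 CPM in KAT7 mutant, against 8.19, 7.32 and 4.53 CPM in wild type. Kcnv1, a gene of the same modulatory group, was called lower at -0.71 ± 0.23 (edgeR adjusted p = 0.0242). Its libraries overlapped, with 5.61, 9.74, 9.69 and 3.67 CPM in KAT7 mutant, against 9.62, 10.9 and 14.7 CPM in wild type. The Kcnv1 call was lost when KAT7 mutant replicate 4 was left out (-0.49, edgeR adjusted p = 0.0727), when wild type replicate 3 was (-0.51, 0.161), in DESeq2 (0.212) and in robust edgeR fitting (0.155), with adjusted p of 6.09e-05 to 0.212 across the settings tried. Kcns2 was not called, at -0.33 ± 0.31.

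Kv3 channels open at depolarised potentials and allow fast spiking. Kcnc2, known from fast-spiking interneurons, had 3.04, 1.97, 3.31 and 2.69 CPM in KAT7 mutant, against 12.9, 9.96 and 7.01 CPM in wild type. Every mutant library was below every wild type library, and the wild type libraries were spread more widely than the mutant ones. Kcnc2 had a log2 fold change of -1.85 ± 0.22 (edgeR adjusted p = 1.80e-06). Its abundant relative Kcnc1 was not called. Kcnc1 stood at 0.08 ± 0.06, with a 95% interval of -0.04 to 0.19. In the interneuron list, 5 of 8 genes were called higher and 0 lower, beside 13.1% and 15.8% of all tested genes. Lhx6, Dlx1 and Dlx6 were not called, at 0.03, 0.38 and 0.26. The list summed to 276 to 381 CPM in KAT7 mutant and 201 to 297 CPM in wild type. The part of interneurons in the fall of Kcnc2 was not tested.

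**Figure D3:**
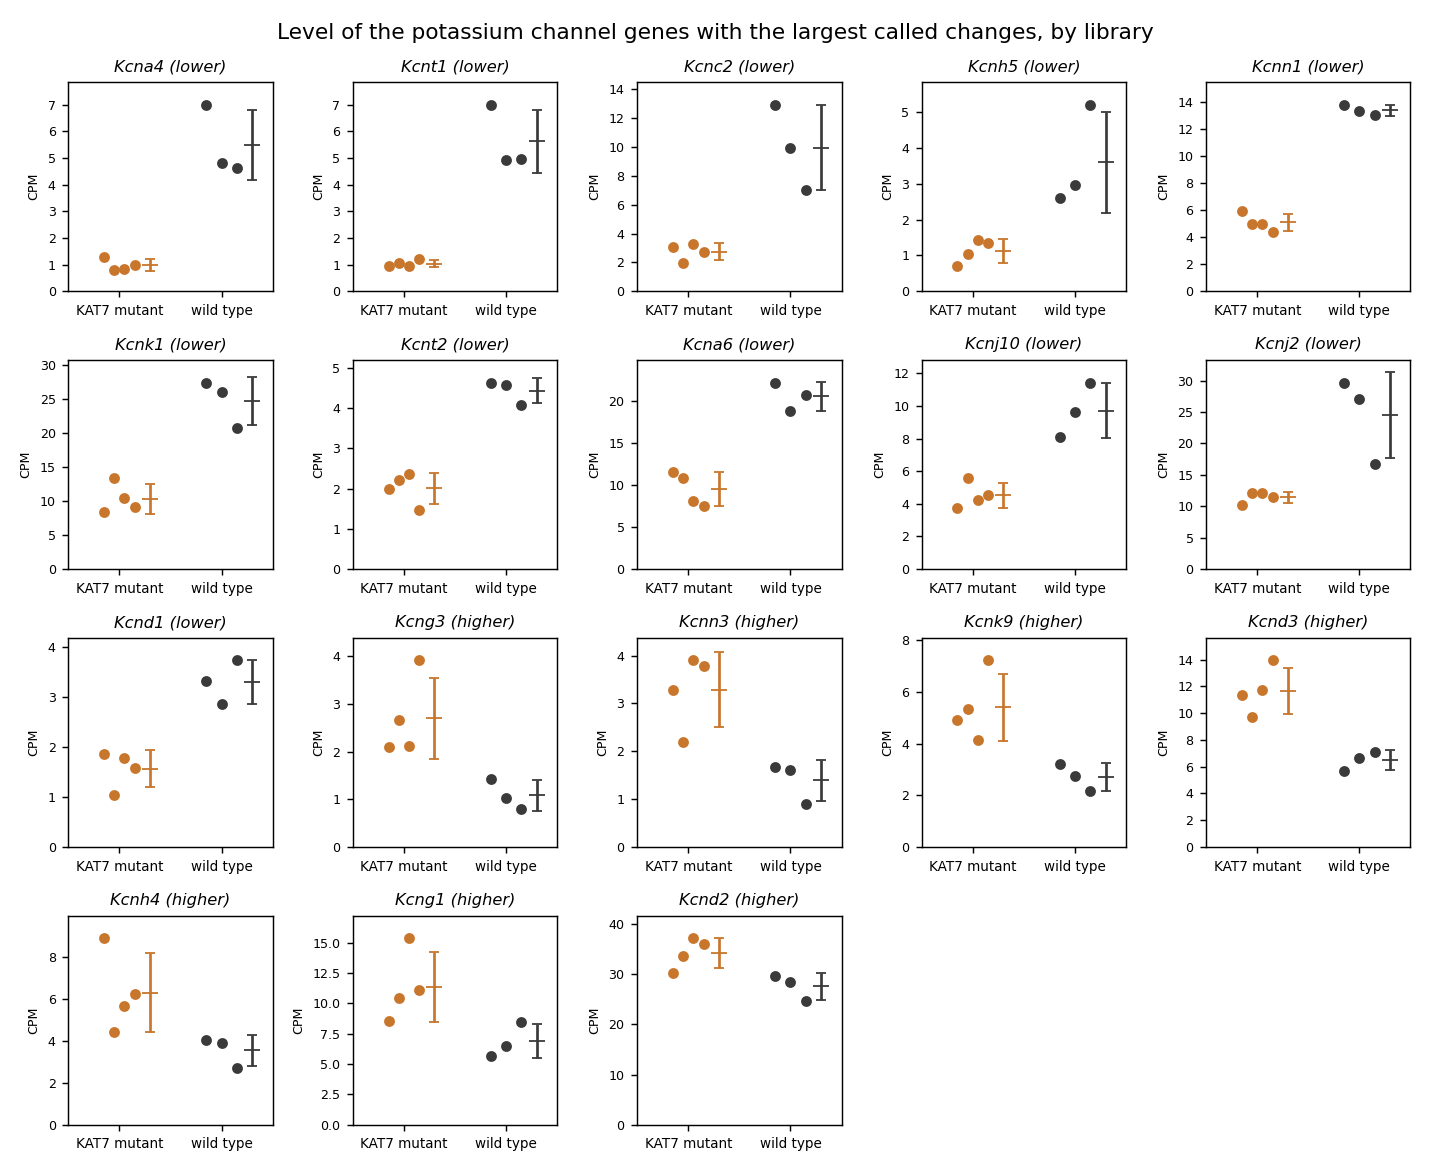
Level in CPM (vertical axes, each from 0) of 11 of the 12 Kcn genes with the largest called falls and of the 7 called rises, 1 point per library, with KAT7 mutant (orange) left of wild type (dark), and mean ± SD beside the points. In each of the 18 panels the libraries of the genotypes do not overlap.

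Kv4 channels carry the A-type current of dendrites, and their members moved apart. Kcnd2, the main A-type subunit by level here, had 30.3, 33.5, 37.1 and 35.9 CPM in KAT7 mutant, against 29.6, 28.5 and 24.6 CPM in wild type. The highest wild type library lay just under the lowest mutant library, and Kcnd2 rose by 0.31 ± 0.09 (edgeR adjusted p = 0.0135), a 1.24-fold level. Without wild type replicate 3 it was not called (0.24, edgeR adjusted p = 0.0948, with 0.00355 to 0.0948 across the settings tried). Kcnd3 had 11.3, 9.74, 11.7 and 13.9 CPM in KAT7 mutant, against 5.70, 6.64 and 7.13 CPM in wild type. It rose in every mutant library over every wild type library, by 0.84 ± 0.15 (edgeR adjusted p = 2.39e-04). Kcnd1 had 1.87, 1.04, 1.77 and 1.59 CPM in KAT7 mutant, against 3.32, 2.86 and 3.73 CPM in wild type, a fall at -1.07 ± 0.25 (edgeR adjusted p = 0.00311). Scaled by length, Kcnd1 made up 8.07 ± 1.93% of the summed Kv4 level in KAT7 mutant and 19.6 ± 3.11% in wild type, whereas Kcnd3 made up 16.2 ± 1.65% in KAT7 mutant and 10.4 ± 1.57% in wild type (SD, n = 4 and 3). These length-scaled shares within subfamilies were chosen after the values were seen and were not tested.

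Auxiliary subunits of Kv channels were called lower in 3 of 7 and higher in 0, beside 15.8% and 13.1% of all tested genes. The Kcnip genes encode calcium-binding proteins that bring Kv4 channels to the surface. Kcnip1, the most abundant of the 7 per length, had 18.3, 20.1, 18.5 and 21.2 CPM in KAT7 mutant, against 26.8, 25.3 and 27.2 CPM in wild type. Its genotypes were separated by more than the spread within either, with a log2 fold change of -0.44 ± 0.09 (edgeR adjusted p = 0.0011). Kcnip3, which also binds DNA as a repressor, fell by 0.46 ± 0.10 (edgeR adjusted p = 0.00219). Kcnab3, a beta subunit of Kv1 channels, fell by 0.62 ± 0.15 (edgeR adjusted p = 0.00354), and Kcnab2 was not called at -0.24 ± 0.10. Kcnip4, Kcnip2 and Kcne1l were not called either, at -0.38, -0.48 and 0.14.

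Partners of potassium channels outside the Kcn symbols were taken from a list of 20 genes, of which 15 were tested. Of these, 5 were called lower (15.8% of all tested genes were), 1 higher (13.1% of all tested genes) and 9 not, and the median log2 fold change was -0.11. Lrrc55, an auxiliary subunit gene of BK channels, had 21.9, 23.0, 16.8 and 22.5 CPM in KAT7 mutant, against 67.0, 64.1 and 56.2 CPM in wild type, a log2 fold change of -1.57 ± 0.09 (edgeR adjusted p = 1.39e-10). Dpp10 and Dpp6, the dipeptidyl peptidase-like partners of Kv4 channels, fell by 1.37 ± 0.16 and 0.99 ± 0.08 (edgeR adjusted p = 1.52e-06 and 6.91e-09). Dpp6 had 39.0, 40.8, 37.3 and 41.3 CPM in KAT7 mutant, against 88.0, 79.6 and 69.2 CPM in wild type. Dpp6 and Dpp10 were thus lower in KAT7 mutant, as was the Kv4 gene Kcnd1, whereas Kcnd2 and Kcnd3 were higher. Of the Kcnip partners of Kv4 channels, Kcnip1 and Kcnip3 were called lower, and Kcnip2 and Kcnip4 were not called. Adam23 fell by 0.42 and Cntn2, an adhesion molecule that holds Kv1 channels beside nodes of Ranvier, fell by 0.30 on the log2 scale. Lgi1, a secreted protein that acts on Kv1 channels, rose by 0.31 ± 0.08 (edgeR adjusted p = 0.0035). Cntnap2, Dlg4, Dlg1, Ank3, Abcc8, Adam22, Vapa, Vapb and Snx27 were not called, though under some alternatives Cntnap2 and Dlg4 were called lower and Ank3 higher.

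Kv7 channels carry the M-current, a slow brake on firing that muscarinic receptors close. Kcnq3, a subunit of the M-channel, was not called, at -0.13 ± 0.11, but was called lower without wild type replicate 1 (-0.29, edgeR adjusted p = 0.0247, with 0.0247 to 0.927 across the settings tried). Kcnq5, a subunit of cortical M-channels, had 43.9, 60.1, 53.8 and 56.7 CPM in KAT7 mutant, against 75.5, 80.1 and 79.9 CPM in wild type. It fell by 0.55 ± 0.08 (edgeR adjusted p = 2.78e-05), to 68.3% of the wild type mean.

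The EAG, ERG and ELK channels of the Kcnh genes fell in 2, rose in 1 and were not called in 3 of 6 tested members. Of all tested genes, 15.8% were called lower and 13.1% higher. Kcnh2, an ERG channel gene and the most abundant of them per length, had 15.7, 10.3, 12.6 and 13.2 CPM in KAT7 mutant, against 22.6, 16.9 and 21.6 CPM in wild type. It fell by 0.65 ± 0.13 with no overlap (edgeR adjusted p = 8.73e-04). Kcnh5, an EAG channel gene, had 0.701, 1.04, 1.42 and 1.34 CPM in KAT7 mutant, against 2.61, 2.98 and 5.20 CPM in wild type, a log2 fold change of -1.67 ± 0.31 at a low level (edgeR adjusted p = 3.60e-04). Kcnh5 met the count rule through wild type, with a mean count of 9.5 in KAT7 mutant and 31.3 in wild type. Its place among the falls is thus partly built in by the rule. Kcnh4, an ELK channel gene, had 8.88, 4.41, 5.67 and 6.24 CPM in KAT7 mutant, against 4.04, 3.89 and 2.72 CPM in wild type, with KAT7 mutant replicate 1 the highest. It rose by 0.83 ± 0.23 (edgeR adjusted p = 0.00936), and was not called without wild type replicate 3 (0.67, edgeR adjusted p = 0.0615, with 0.000444 to 0.0615 across the settings tried). Kcnh1, Kcnh3 and Kcnh7 stood at -0.38, -0.08 and 0.03.

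**Figure D4:**
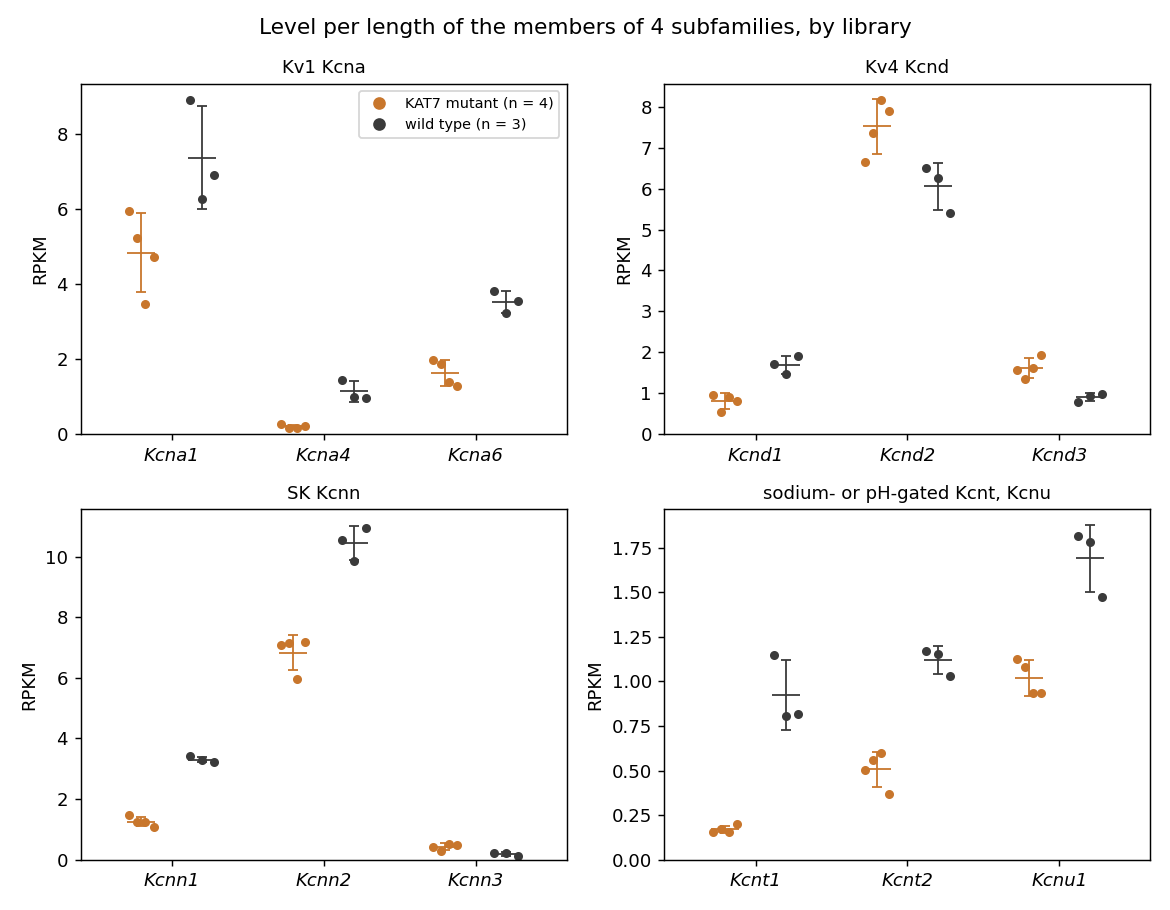
Level per length in RPKM (vertical axes, each from 0) of the members of the Kv1, Kv4, SK and sodium- or pH-gated subfamilies that met the count rule, 1 point per library, with KAT7 mutant (orange) left of wild type (dark) for each gene and horizontal marks with bars for mean ± SD. Kcnn1 and Kcnn2 lie lower and Kcnn3 higher in KAT7 mutant, and Kcnd1 lies lower while Kcnd2 and Kcnd3 lie higher.

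SK channels, which calcium opens through calmodulin and which contribute to the afterhyperpolarisation, were called in all 3 members that met the count rule, in both directions. The shares over all tested genes were 15.8% called lower and 13.1% called higher. Kcnn1 had 5.96, 4.99, 4.96 and 4.40 CPM in KAT7 mutant, against 13.8, 13.3 and 13.0 CPM in wild type. The genotypes were far apart relative to their spread, and Kcnn1 had a log2 fold change of -1.39 ± 0.14, a 2.62-fold lower level (edgeR adjusted p = 1.95e-07). Kcnn2, the most abundant SK gene per length, had 14.5, 14.6, 12.2 and 14.7 CPM in KAT7 mutant, against 21.6, 20.1 and 22.4 CPM in wild type, a fall of 0.61 ± 0.10 (edgeR adjusted p = 1.55e-04). Kcnn3 had 3.27, 2.20, 3.90 and 3.79 CPM in KAT7 mutant, against 1.66, 1.60 and 0.905 CPM in wild type, a rise of 1.24 ± 0.29 (edgeR adjusted p = 0.00278). The summed SK level was 22.4 ± 1.18 CPM in KAT7 mutant and 36.1 ± 1.03 CPM in wild type. Per length, Kcnn3 was the scarcest of the 3, at 0.432 ± 0.102 RPKM in KAT7 mutant and 0.182 ± 0.0553 RPKM in wild type, whereas Kcnn2 was at 6.83 ± 0.593 RPKM in KAT7 mutant and 10.5 ± 0.561 RPKM in wild type (SD, n = 4 and 3). The share of Kcnn3 in the length-scaled SK level was 5.12 ± 1.41% in KAT7 mutant and 1.32 ± 0.420% in wild type.

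The BK channel, opened by calcium and voltage together, was not called in any of its members with a Kcn symbol. Outside these symbols, Lrrc55, the auxiliary subunit gene given above, fell by 1.57 ± 0.09 on the log2 scale. Kcnmb4, the beta subunit of neurons, was the Kcn gene with the highest level per length, at 31.9 ± 2.19 RPKM in KAT7 mutant and 33.7 ± 2.64 RPKM in wild type (SD, n = 4 and 3). It had 31.8, 35.1, 31.3 and 30.0 CPM in KAT7 mutant, against 31.6, 33.2 and 36.8 CPM in wild type. The libraries of the genotypes were interleaved, and the log2 fold change was -0.08 ± 0.08 with a 95% interval of -0.25 to 0.09. The pore gene Kcnma1 stood at 0.02 ± 0.13, with a 95% interval of -0.26 to 0.30. Kcnmb4os2, a non-coding RNA named as the opposite strand of Kcnmb4, was not called at 0.15 ± 0.25, and since the strand setting of the counts is not given, reads of such overlapping genes cannot be separated.

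Relatives of the BK pore that sense sodium or pH fell in all 3 members that met the count rule, beside 15.8% of all tested genes called lower. Kcnt1, a sodium-activated channel gene mutated in human infantile epilepsies, had 0.935, 1.04, 0.945 and 1.22 CPM in KAT7 mutant, against 7.01, 4.92 and 4.98 CPM in wild type. Its mutant libraries lay close together and far under the wild type ones, with a log2 fold change of -2.43 ± 0.25, a 5.37-fold lower level (edgeR adjusted p = 2.93e-07). Kcnt2, the other sodium-activated gene, had 1.99, 2.20, 2.36 and 1.47 CPM in KAT7 mutant, against 4.63, 4.58 and 4.07 CPM in wild type, a log2 fold change of -1.13 ± 0.22 (edgeR adjusted p = 5.36e-04). Kcnu1, known as a pH-sensitive channel gene of sperm, had 3.97, 3.83, 3.31 and 3.30 CPM in KAT7 mutant, against 6.41, 6.29 and 5.20 CPM in wild type. It fell by 0.72 ± 0.18 (edgeR adjusted p = 0.00376), and no mutant library reached the lowest wild type library. The summed level of the 3 genes was 6.64 ± 0.474 CPM in KAT7 mutant and 16.0 ± 1.91 CPM in wild type (SD, n = 4 and 3), the lowest share of the wild type level, 41.4%, among the subfamilies. Kcnt1 met the count rule through wild type, with a mean count of 8.75 in KAT7 mutant and 48.7 in wild type. The count of 3 falls and the fall in the sum are thus partly built in by the rule.

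Inward rectifiers, which pass potassium best near rest, were called lower in 3 of 7 members and higher in 0. Of all tested genes, 15.8% were called lower and 13.1% higher. Kcnj2, a strong rectifier, had 10.2, 12.1, 12.1 and 11.5 CPM in KAT7 mutant, against 29.7, 27.0 and 16.7 CPM in wild type. The mutant libraries were close together, wild type replicate 3 was lower than the other wild type libraries, and the log2 fold change was -1.09 ± 0.15 (edgeR adjusted p = 1.64e-05). Kcnj10, the channel of glia that takes up potassium, had 3.74, 5.56, 4.25 and 4.52 CPM in KAT7 mutant, against 8.07, 9.61 and 11.4 CPM in wild type, a log2 fold change of -1.10 ± 0.17 (edgeR adjusted p = 5.20e-05). Of the glial lists, 5 of 7 tested radial glia genes and 2 of 4 tested astrocyte genes (Gfap and Aldoc) were called lower and 0 higher, with the astrocyte genes Aldh1l1 at 0.54 and Slc1a2 at 0.02 not called. In the oligodendrocyte lineage list 4 of 7 genes were instead called higher, with Olig1 at 1.54 and Olig2 at 1.67, and in the microglia list 4 of 6, and in both 0 were called lower. The radial glia list summed to 177 to 216 CPM in KAT7 mutant and 240 to 260 CPM in wild type, and the astrocyte list to 120 to 146 CPM in KAT7 mutant and 140 to 150 CPM in wild type. Their part in the fall of Kcnj10 was not tested. Its neighbour on chromosome 1, Kcnj9, which encodes a G protein-gated subunit, was not called at -0.26 ± 0.30.

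Kcnj11, the pore of the ATP-sensitive channel, had 37.7, 39.9, 38.9 and 39.2 CPM in KAT7 mutant, against 45.4, 40.5 and 49.6 CPM in wild type. The difference was small, -0.21 ± 0.08 (edgeR adjusted p = 0.0393), and its call was lost in DESeq2 (adjusted p = 0.103) and without any library other than wild type replicate 2, reaching -0.14 without wild type replicate 3 (adjusted p = 0.243, with 0.0139 to 0.243 across the settings tried). Abcc8, its sulfonylurea receptor partner, stood at -0.11 ± 0.10 and was not called. Kcnj3, the abundant G protein-gated subunit, had 15.7, 24.3, 19.7 and 21.4 CPM in KAT7 mutant, against 24.2, 21.7 and 25.2 CPM in wild type. These overlapped, at -0.23 ± 0.12 with a 95% interval of -0.48 to 0.02. Kcnj4, a strong rectifier, and Kcnj6, a G protein-gated subunit, were not called, at 0.53 and -0.08. Kcnj4 was called higher without KAT7 mutant replicate 1 (0.64, edgeR adjusted p = 0.0339) and without wild type replicate 1 (0.69, adjusted p = 0.0496), with 0.0339 to 0.284 across the settings tried.

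Of 6 tested genes of K2P leak channels, which hold the resting potential, 1 was called lower, 1 higher and 4 were not called. Of all tested genes, 28.9% were called. Kcnk2, a leak channel opened by stretch and lipids, had the highest level per length of the pore-forming subunits, at 21.5 ± 0.747 RPKM in KAT7 mutant and 20.2 ± 1.23 RPKM in wild type (SD, n = 4 and 3). It had 83.2, 81.8, 87.3 and 87.8 CPM in KAT7 mutant, against 74.7, 81.4 and 84.2 CPM in wild type. The libraries overlapped, and its 95% interval of log2 fold change was -0.04 to 0.21. Kcnk1, a weakly conducting leak channel gene, had 8.41, 13.3, 10.4 and 9.17 CPM in KAT7 mutant, against 27.4, 26.0 and 20.7 CPM in wild type, a log2 fold change of -1.25 ± 0.14 and a 2.38-fold lower level (edgeR adjusted p = 8.29e-07). It was the most abundant gene per length among the falls of 2-fold or more. Kcnk9, an acid-sensitive leak channel gene, had 4.91, 5.33, 4.13 and 7.21 CPM in KAT7 mutant, against 3.21, 2.75 and 2.15 CPM in wild type. It rose by 1.00 ± 0.23, a 1.99-fold level, with every mutant library above every wild type library (edgeR adjusted p = 0.00219). Kcnk10, Kcnk3 and Kcnk12 were not called, at 0.16, -0.28 and -0.40.

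The remaining Kcn symbols encode no pore. Kcnrg, a soluble suppressor of Kv channel assembly, had 4.32, 6.96, 5.20 and 4.89 CPM in KAT7 mutant, against 4.75, 4.46 and 6.56 CPM in wild type, with overlapping libraries and a log2 fold change of 0.02 ± 0.20. Kcnq1ot1 had 69.6, 107, 74.7 and 155 CPM in KAT7 mutant, against 114, 51.6 and 52.8 CPM in wild type. Wild type replicate 1 lay above 3 of the 4 mutant libraries, so the genotypes overlapped, and it was not called at 0.48 ± 0.24 (edgeR adjusted p = 0.142). It was called higher without wild type replicate 1, at 0.95.

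Level per length was also set beside the calls, without a test. Kcnmb4, Kcnk2, Kcnip1, Kcnj11 and Kcnj3 were among the 6 genes with the highest wild type RPKM. Kcnmb4 was at 33.7 RPKM and Kcnj3 at 14.1 RPKM in wild type, and no log2 fold change of these genes was larger than 0.44 in size. The median wild type level was 3.49 RPKM in the 23 genes called lower, 0.94 RPKM in the 7 called higher and 3.11 RPKM in the 27 not called. Wild type level is also the denominator of the fold change, and Kcng3 met the count rule through its mutant counts. The low median of the genes called higher is therefore not independent of their calls. Of the rises, Kcnd2 was the only gene above 3 RPKM in wild type. Members were less abundant than tested genes at large, with a median mean level of 9.13 CPM beside 24.6 CPM.

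**Figure D5:**
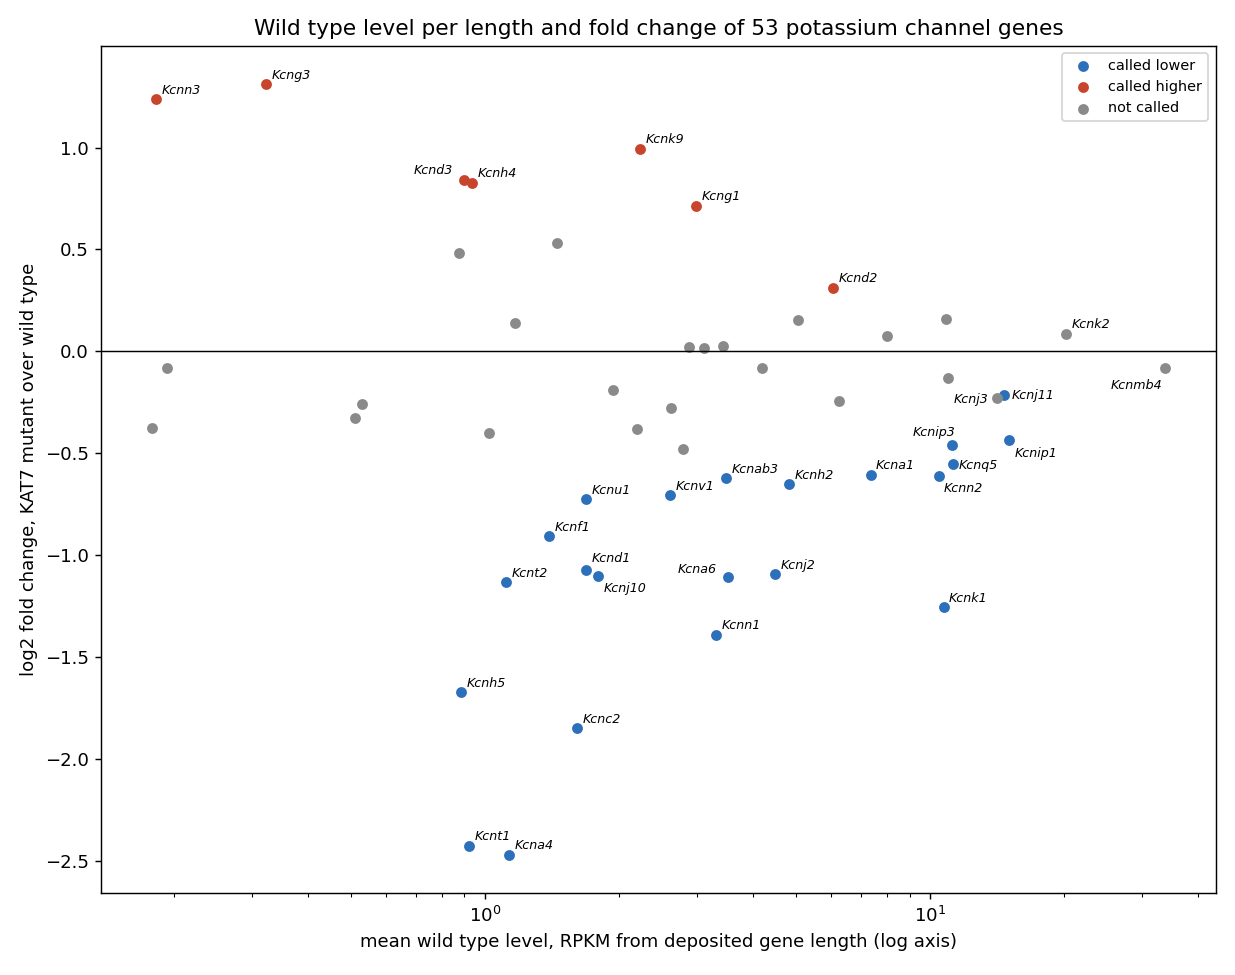
Mean wild type level in RPKM from the deposited gene length (horizontal log axis) and log2 fold change of KAT7 mutant over wild type (vertical axis) of 53 of the 57 tested Kcn genes, 1 point per gene, with called genes and the most abundant ones named. Kcna4 and Kcnt1, the largest falls, lie near 1 RPKM, and Kcnmb4 at 33.7 RPKM lies near no change.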

How the data were processed

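The authors deposited whole-number read counts per Entrez gene for 7 libraries, made with featureCounts and naming mm9, per the submitters' processing notes, with a gene length per row. The sources used here do not give the aligner, the annotation or the strand setting. Columns were matched to samples by their descriptions. Symbols came from an NCBI table of GRCm38.p6 for 24176 of 26286 identifiers. The design text names separate mice, so replicates were taken as animals.

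EdgeR 4.0.16 in R 4.3.3 (filterByExpr by group, TMM factors of 0.9894 to 1.01, quasi-likelihood F test, 2-sided, genotype as the only term) was fitted on the whole table and checked on simulated counts. P-values were adjusted by Benjamini-Hochberg over 13681 genes, and a gene was called under 0.05. SE was derived as the absolute log2 fold change divided by the root of the F statistic, and 95% intervals use it with the fit's degrees of freedom. CPM used TMM-scaled totals, and RPKM is CPM per kilobase of the deposited length. Alternatives were RLE or no factors, no count filter, a 1 CPM minimum in 3 libraries, DESeq2 1.42.0, limma-voom (limma 3.58.1), robust edgeR, a replicate block, each library left out and an adjusted p under 0.01.

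Members and lists were chosen with earlier results of these data known. Called members are named, and values by library are given for called members with the 12 largest falls and up to 12 largest rises at a mean of at least 1 CPM in a genotype, the 6 members with the highest wild type RPKM and the most abundant member of each subfamily. Kcnf1, Kcnv1, Kcnq5 and Kcnq1ot1 and the partner genes shown by library were added after their values were seen. Promoter windows were picked likewise. Some genes that these rules name are left out of the text and plots and are not reported here, while counts, medians and sums include them.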

Additional observations from a re-analysis of the deposited data

Results flagged for a closer look

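Kcnn2, an SK channel gene, had 12.2 CPM in KAT7 mutant replicate 3, against 14.5 to 14.7 CPM in the other mutant libraries. That library lay far from the rest by the Dixon gap test, with a gap of 0.927 of the group's range. It was the only such library among 72 genes examined (57 Kcn genes and 15 partners). Chance alone flags about 1 gene in 20, so 1 gene of 72 is no more than chance gives.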

How the results depend on the processing

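Under the 15 alternatives other than the stricter threshold, 25 of the 30 called Kcn genes were called in each. Losses were in Kcna1, Kcnd2, Kcnh4, Kcnj11 and Kcnv1, as given beside them, with Kcnd2 (edgeR adjusted p = 0.0638) and Kcnj11 (0.0801) also lost under the replicate block, and no called gene changed sign. Genes called higher numbered 6 to 8 and genes called lower 21 to 25 under other factors, filters and tests (DESeq2 called 7 higher and 21 lower), and 5 to 9 and 22 to 25 with 1 library left out. Over all genes these alternatives called 9.25% to 13.5% higher and 11.9% to 16.8% lower, and 9.19% to 13.1% and 13.2% to 16.3% with 1 library left out. The median log2 fold change was -0.27 to -0.24 and -0.32 to -0.20. At an adjusted p under 0.01, 6 Kcn genes were higher and 21 lower, beside 7.56% and 11.2% of all genes, and calls over all genes numbered 2566 in place of 3956.

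Replicate numbers did not pair the samples: deviations from group means correlated at 0.0181, 0.0118 and -0.0292 for the 3 same-numbered libraries, and not every sample correlated best with its own number. With the replicate block, 6 Kcn genes were higher and 23 lower, beside 10.7% and 14.2% of all genes. Kcnq1ot1 was called higher with no count filter (0.48), without KAT7 mutant replicate 1 (0.62) and without wild type replicate 1 (0.95). Other genes not called were called in some settings, all in their own direction. Kcnq3 was called without wild type replicate 1 (-0.29), Kcnj4 without KAT7 mutant replicate 1 (0.64) or wild type replicate 1 (0.69), and Kcnab2 (-0.31) and Kcnj3 (-0.33) without KAT7 mutant replicate 2. Among partners, Cntnap2 was called in 6 settings (-0.34 to -0.26), Ank3 in 4 (0.16 to 0.23) and Dlg4 in 2 (-0.17 and -0.14).

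Uncalled values near 0 changed sign, the cause of which was not tested. With 1 library left out, the log2 fold change was -0.00021 to 0.36 for Kcne1l, -0.064 to 0.13 for Kcnh7, -0.25 to 0.072 for Kcnj6, -0.075 to 0.14 for Kcnma1, -0.074 to 0.30 for Kcnmb4os2, -0.13 to 0.22 for Kcnrg and -0.091 to 0.035 for Snx27. With the block, Kcnh7 was -0.069 and Kcnma1 -0.0067, and in limma-voom Kcnma1 was -0.0050. Depth limits genes of about 1 CPM, which are near 10 counts a library.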
